A study of Homo sapiens with 6 samples.

Results

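The genes described here are nucleolar ribosome biogenesis factors, the proteins that transcribe, modify, cut and fold ribosomal RNA and assemble it with ribosomal proteins. They were chosen by name, as the rows of the deposited table whose gene symbol matched 1 of 40 listed symbols. All 40 were found, each in 1 row, among 60612 genes in the table. The tested cells were A549, a human lung adenocarcinoma line of epithelial type, transfected with an siRNA against GSE1 (siGSE1, 3 libraries). The controls were A549 cells given a negative control siRNA (3 libraries). RNA of both groups was taken 48 hours after transfection, and RNA sequencing libraries were made from 500 ng of total RNA. The sources used here do not give the siRNA sequence. The labels number the replicates without saying whether they were separate cultures, so the p-values rest on a spread between libraries that may be technical only.

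Ribosomes are built in the nucleolus around the genes for ribosomal RNA, which RNA polymerase I transcribes. Small nucleolar ribonucleoproteins (snoRNPs) methylate and pseudouridylate the transcript, a large assembly called the small subunit processome and a chain of large subunit particles cut and fold it, and late factors release the pre-ribosomes to the cytoplasm. Growing and cancer cells use these factors heavily, and MYC is a well-known activator of their genes.

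Library totals ran from 17521807 to 19914346 counts in siGSE1 cells and from 14475992 to 20755506 in control cells. GSE1, the targeted gene, had 3.84, 4.06 and 3.73 FPKM (counted fragments scaled to exonic length and library total) in siGSE1 replicates 1 to 3, against 7.37, 8.06 and 7.92 in control replicates 1 to 3. Its log2 fold change was -1.03 (edgeR adjusted p = 2.14e-08). All 7 epithelial markers were above 1 FPKM in at least 1 library, EPCAM only in control replicate 3 (1.14). Their summed level was 2100.8 to 2115 FPKM in siGSE1 cells and 2203 to 2538 in control cells, with KRT7, KRT8 and KRT18 the most abundant. KRT8, KRT18 and CLDN4 had log2 fold changes of -0.26, -0.25 and -0.72 (edgeR adjusted p = 0.0173, 0.0317 and 1.76e-04). EPCAM, CDH1, KRT7 and KRT19 had an edgeR adjusted p of 0.238 or more. Of the markers of other cell types, 5 of 6 for leukocytes, 5 of 6 for fibroblasts and 6 of 6 for endothelium stayed under 1 FPKM in every library. Their summed levels were 3.31 to 4.91, 1.97 to 2.16 and 0.07 to 0.25 FPKM in siGSE1 cells, and 3.65 to 5.86, 1.25 to 1.95 and 0.14 to 0.20 in control cells. Control replicate 2 stood apart within its group, with a chi-square per degree of freedom of 10.16 and 9.04 against control replicates 1 and 3. Pairs of siGSE1 libraries had 2.48 to 3.32, and control replicates 1 and 3 had 4.57.

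Most of the factors had slightly lower values in siGSE1 cells, while a few stood out in either direction. NOLC1 and TCOF1, a pair of related nucleolar scaffold proteins, and RIOK1, a kinase of late small subunit maturation, rose to 168.2%, 153.5% and 147.1% of their control levels. SENP3, a nucleolar SUMO protease, fell to 53.2%, and 14 other factors fell to between 72.7% and 88.6%. All 40 members passed the filter on low counts. Of them 3 rose, 15 fell and 22 did not pass the threshold (edgeR quasi-likelihood test, Benjamini-Hochberg adjusted p under 0.05). Over all genes tested 19.9% passed in either direction. The share of members that fell was 37.5%, where 9.02% of the 15937 genes tested fell, and the share that rose was 7.5%, where 10.9% of all genes rose. The median log2 fold change, siGSE1 over control, was -0.14 for the members and 0.00 for all genes tested. Regardless of sign, its median size was 0.18 for the members and 0.173 for all genes tested. Members varied less between libraries of a group, with a median SD on the log2 scale of 0.07 against 0.127. How far the shares past the threshold follow from this smaller spread was not tested. In bulk RNA, fewer cells that express a gene and less RNA per cell cannot be told apart.

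The fold change was below 0 for 33 members and above 0 for 7, where 7870 of all 15937 genes tested were below 0. DKC1, POLR1A, POLR1B, UTP4, HEATR1 and BOP1, none of them past the threshold, were barely above 0 with TPM scaling. Their log2 fold changes there were 0.034 at most, and that of BOP1 rounded to 0.0. With that scaling the median of all genes tested was 0.067. In FPKM the 3 siGSE1 libraries lay below all 3 control libraries for 20 members, or 50.0%, where 14.9% of all genes tested did so. They lay above them for 4 members, or 10.0%, where the share of all genes was 21.2%, and 36.1% of all genes had groups apart in either direction. The series text gives stricter limits, an adjusted p up to 0.001 and a limit on the expression ratio. The latter was read here as a log2 fold change of 0.5 or more in size. Under these limits NOLC1 and TCOF1 rose and SENP3 fell. RIOK1 also passed them with DESeq2 (adjusted p = 9.49e-04), with TPM scaling, with no low-count filter and without control replicate 2, and TCOF1 missed them with limma on log2(FPKM + 1). Of all genes 2.55% passed these limits, 1.62% upward and 0.929% downward. With each library scaled to the same FPKM sum (TPM scaling) the counts were 3 higher and 11 lower among the members, beside 16.0% higher and 5.83% lower among all genes. With trends in GC content and length removed they were 3 higher and 16 lower, beside 9.56% and 10.6%.

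**Figure D1:**
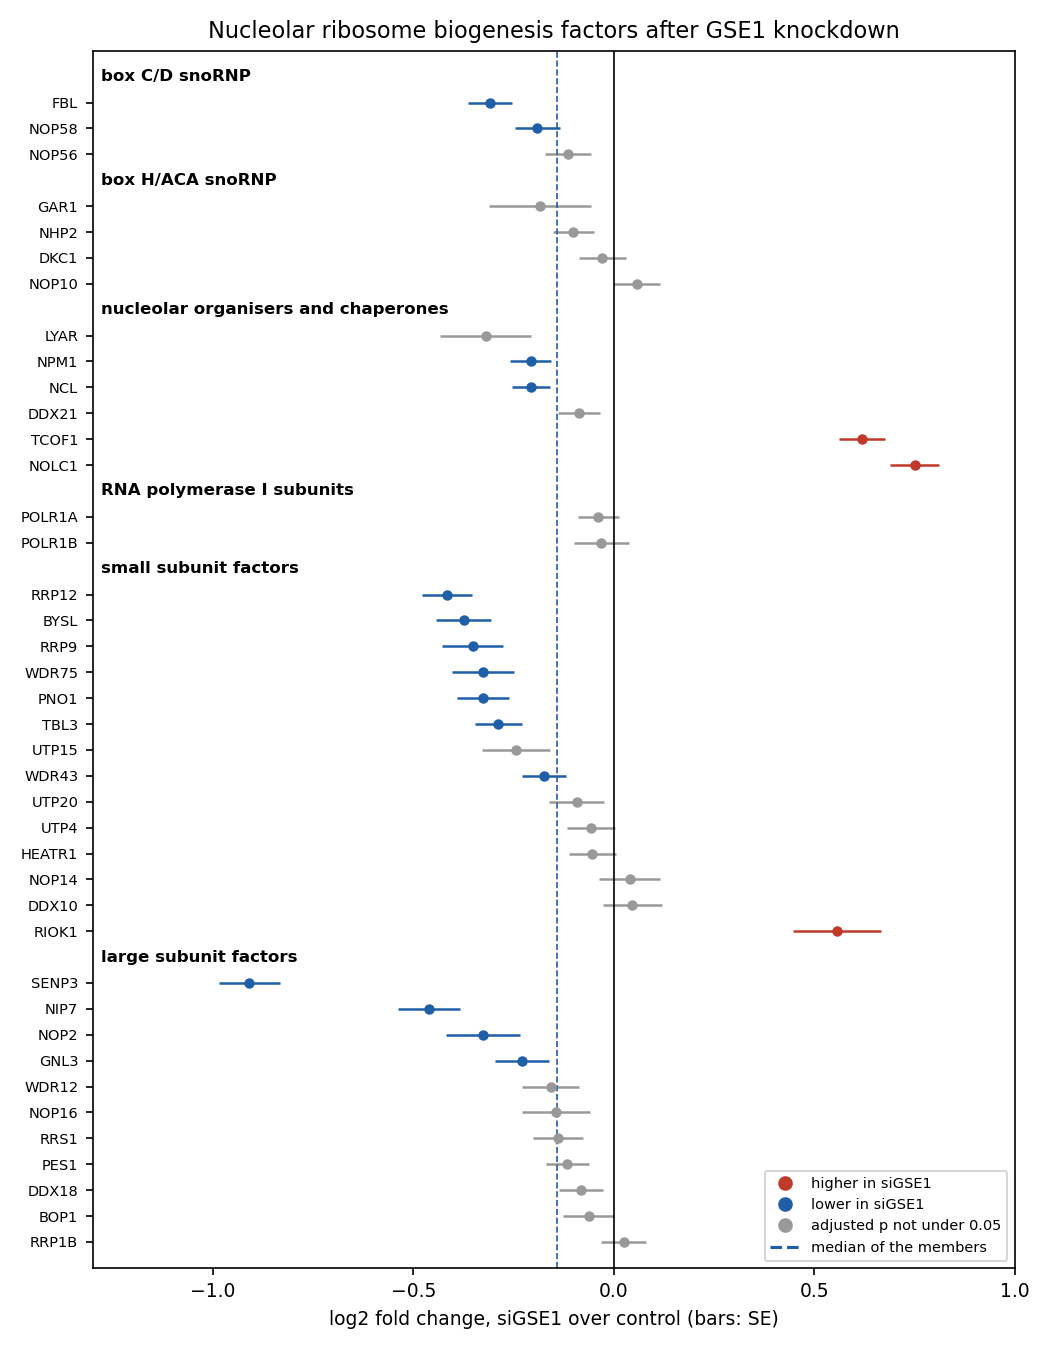
Log2 fold change, siGSE1 over control, of each of the 40 members (x axis; bars are the standard error of the edgeR fit, 3 libraries a group), grouped by role on the y axis. Most points lie left of 0 around the dashed member median of -0.14, while NOLC1, TCOF1 and RIOK1 lie to the right and SENP3 lies farthest to the left.

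Promoter sequence was not used to choose the members. RefSeq promoter windows of GRCh38.p14, from 250 bases before to 50 bases after the annotated start, were matched by symbol for 32 of the 40 members. Entries for BOP1, DDX18, NOLC1, NOP58, RRP12, RRP1B, RRS1 and TCOF1 were not matched. The E-box CACGTG, the letters bound by MYC and related factors, was found in 11 of these 32 windows, or 34.4%, and was absent from the rest. It occurred in 7.3% of all 35116 windows and in 10.0% of the 11122 windows of genes tested here. Each of the 11 had an E-box whose first base lay between -16 and 35, counted from the start as 0. An E-box within 50 bases of the start, a distance chosen after the positions were seen, occurred in 4.0% of the windows of tested genes. The E-box reads the same on both strands and was counted once per site.

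Among member promoters with an E-box, 6 belong to genes that fell (of 13 lower members with a window), 5 to genes that did not pass (of 18), and 0 to RIOK1, the 1 higher member with a window. The ETS motif CCGGAAG, searched on both strands, was found in 10 member windows, or 31.2%, against 18.4% of the windows of tested genes and 10.3% of all windows, and 4 members held both motifs. The motif GCATGCG, a core of the NRF1 site, was found in 2 and CGCGAGA in 3 member windows, 6.2% and 9.4%, against 6.2% and 6.4% of tested genes. Median GC content was 63.8% in the member windows and 58.7% in all windows, and no test was made of any of these shares. MYC itself, from a list of its network, had 21.55, 22.86 and 22.37 FPKM in siGSE1 cells against 17.78, 18.67 and 19.18 in control cells, with log2 fold change 0.24 (SE 0.05, edgeR adjusted p = 0.00524). Of the 12 tested genes of that network 2 rose, or 16.7% where 10.9% of all genes rose, and 0 fell. The 2 were MYC and the low-abundance MYCN, which had 9, 21 and 3 counts in control replicates 1 to 3. The log2 fold change of MYCN was 1.501 (SE 0.444, edgeR adjusted p = 0.0252). The count of higher genes was 1 without siGSE1 replicate 3, control replicate 1 or control replicate 3. It was also 1 with a filter of at least 1 FPKM in 3 libraries, which MYCN did not pass.

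The sequences shown are the 100 bases around the start (50 on either side, 5′ to 3′ on the gene's strand) of the 6 lower members with an E-box there, followed by RIOK1, which rose and has no E-box. Capitals mark CACGTG, and in RIOK1 the 2 matches to the ETS motif, which lie on the opposite strand. In GRCh38.p14 they lie at chr19:39846330-39846429 (minus strand) for FBL, chr2:28894617-28894716 (plus) for WDR43, chr3:51941855-51941954 (minus) for RRP9, chr6:41921449-41921548 (plus) for BYSL, chr2:68157838-68157937 (plus) for PNO1, chr12:6568242-6568341 (minus) for NOP2 and chr6:7389758-7389857 (plus) for RIOK1.
FBL: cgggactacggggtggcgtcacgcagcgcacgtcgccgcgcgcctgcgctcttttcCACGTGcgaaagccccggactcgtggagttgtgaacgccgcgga
WDR43: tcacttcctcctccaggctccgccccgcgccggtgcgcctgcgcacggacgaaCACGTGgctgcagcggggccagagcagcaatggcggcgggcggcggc
RRP9: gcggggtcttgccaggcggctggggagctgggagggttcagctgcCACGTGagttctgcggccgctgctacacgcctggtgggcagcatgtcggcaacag
BYSL: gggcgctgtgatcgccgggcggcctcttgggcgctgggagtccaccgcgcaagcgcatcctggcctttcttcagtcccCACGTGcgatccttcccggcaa
PNO1: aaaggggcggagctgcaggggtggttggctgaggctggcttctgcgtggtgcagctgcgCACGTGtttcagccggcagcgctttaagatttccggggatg
NOP2: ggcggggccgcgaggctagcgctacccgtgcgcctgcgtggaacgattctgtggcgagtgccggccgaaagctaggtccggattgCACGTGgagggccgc
RIOK1: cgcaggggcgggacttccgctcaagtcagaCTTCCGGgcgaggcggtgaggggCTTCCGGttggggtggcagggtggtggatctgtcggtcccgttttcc

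**Figure D2:**
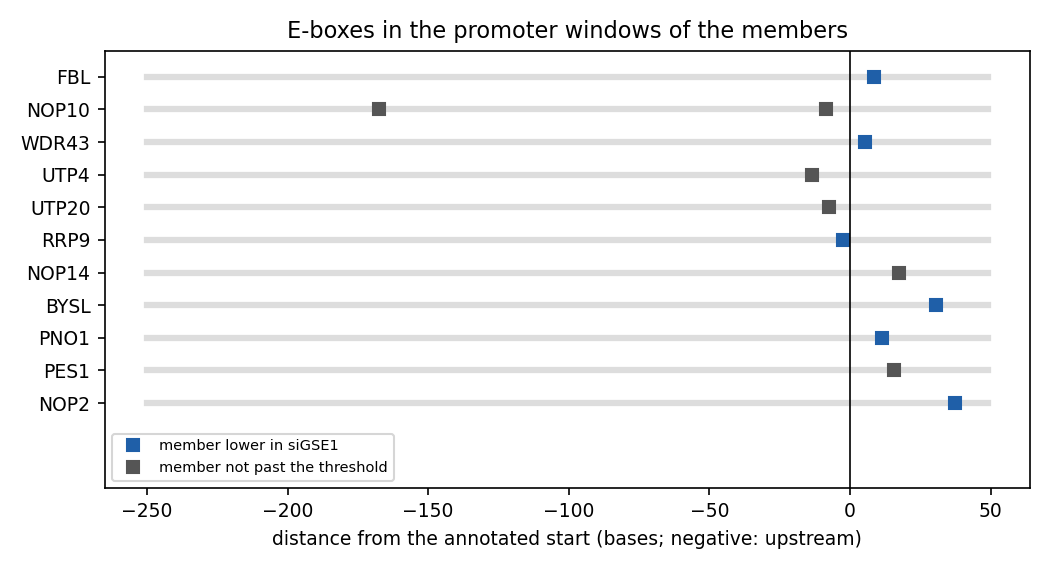
Position of each E-box (x axis, bases from the annotated start) in the promoter windows of the 11 members that hold one (y axis), coloured by whether the member fell in siGSE1 cells or did not pass the threshold. All 11 genes have an E-box near the start, and NOP10 has another farther upstream.

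The nucleolar organisers held the largest increases. NOLC1 (ENSG00000166197, chromosome 10, 102152176 to 102163871, plus strand), also called Nopp140, binds snoRNPs and RNA polymerase I. It had 49.29, 48.59 and 48.31 FPKM in siGSE1 replicates 1 to 3, against 27.77, 31.01 and 26.55 in control replicates 1 to 3. Every siGSE1 library was above every control library, at means of 48.7 ± 0.51 and 28.4 ± 2.31 FPKM (SD, n = 3 each). Its log2 fold change was 0.75 (SE 0.06, edgeR adjusted p = 6.34e-07). TCOF1 (ENSG00000070814, chromosome 5, 150357629 to 150400308, plus strand) encodes treacle, a related scaffold that supports transcription of ribosomal RNA genes. It had 11.66, 11.06 and 12.14 FPKM in siGSE1 cells, against 7.69, 7.16 and 7.46 in control cells. The groups were again apart, and the log2 fold change was 0.62 (SE 0.06, edgeR adjusted p = 2.67e-06).

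The other organisers went lower or did not pass. Nucleolin (NCL), which binds ribosomal RNA genes and their transcripts, had 113, 111 and 111 FPKM in siGSE1 cells against 129.6, 125 and 125 in control cells (log2 fold change -0.21, edgeR adjusted p = 0.00552). Nucleophosmin (NPM1), the histone and assembly chaperone of the granular nucleolus, had 187, 192 and 181 FPKM in siGSE1 cells against 222, 203 and 211 in control cells. Its log2 fold change was also -0.21 (edgeR adjusted p = 0.00961), and its call was lost without siGSE1 replicate 3 (adjusted p = 0.0686). The table also lists 46 NPM1 pseudogenes with 2739 counts over all libraries, against 85818 for NPM1, so reads may be split between near-identical copies. LYAR, a nucleolar zinc finger protein, had a log2 fold change of -0.32 with non-overlapping groups and an edgeR adjusted p of 0.0578, and passed without siGSE1 replicate 2 or control replicate 2. The helicase DDX21 was at -0.09 (SE 0.05).

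**Figure D3:**
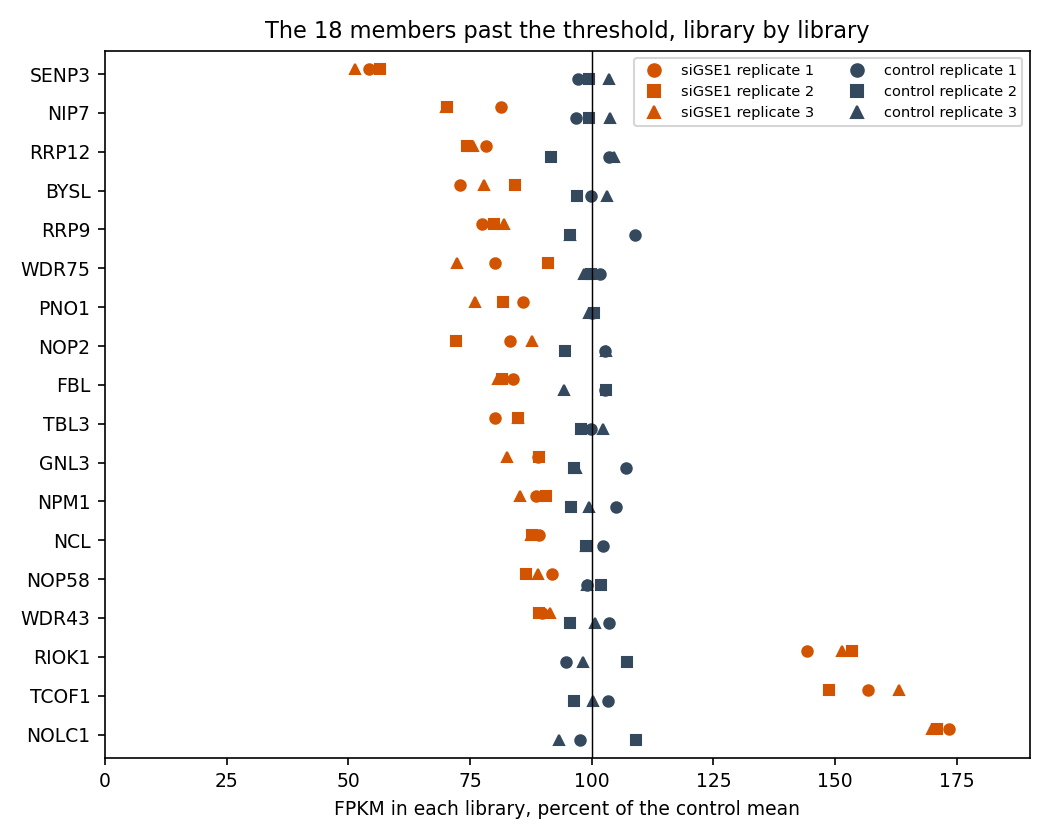
FPKM of each member past the threshold in each library, as a percentage of that gene's mean over the control libraries (x axis), with siGSE1 libraries above control libraries within each gene (y axis) and the marker shape giving the replicate. For every gene drawn the orange siGSE1 points lie wholly on one side of the dark control points.

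Among the box C/D snoRNP proteins, which guide and carry out ribose methylation of ribosomal RNA, the enzyme fell most. Fibrillarin (FBL, chromosome 19, 39834458 to 39846379, minus strand), the methyltransferase, had 139.9, 136 and 135 FPKM in siGSE1 cells, against 171, 171 and 157 in control cells. It was lower in 3 of 3 siGSE1 libraries, to 80.7% of the control level (log2 fold change -0.31, SE 0.05, edgeR adjusted p = 7.36e-04). NOP58, a scaffold of the complex, had 23.45, 22.09 and 22.71 FPKM in siGSE1 cells against 25.3, 26 and 25.28 in control cells, a fall of a smaller size (log2 fold change -0.19, SE 0.06, edgeR adjusted p = 0.0233). NOP58 lost its call without siGSE1 replicate 2 (adjusted p = 0.118) or 3 (0.0753), with TPM scaling (0.107) and with no low-count filter (0.0566). Its paralogous partner NOP56 had 39.41, 40.23 and 41.09 FPKM in siGSE1 cells against 45.7, 42.19 and 40.49 in control cells. Those groups overlapped, and the interval of 2 SE around the log2 fold change of -0.12 ran from -0.23 to 0.00.

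None of the 4 box H/ACA snoRNP proteins, which pseudouridylate ribosomal RNA and stabilise telomerase RNA, passed the threshold. NOP10, the smallest core protein and the most abundant of the 4, had 236.5, 212 and 211 FPKM in siGSE1 cells against 207, 208 and 209 in control cells. Its siGSE1 values were all slightly above the control values, and the log2 fold change was 0.06 (SE 0.06, edgeR adjusted p = 0.548). NHP2, an RNA-binding core protein, was at -0.10 and dyskerin (DKC1), the pseudouridine synthase, at -0.03. GAR1 was at -0.19 with a larger SE of 0.13. Their unadjusted p-values from edgeR ran from 0.0718 for NHP2 to 0.626 for DKC1. NOP10 stood 28.96-fold above GAR1 in FPKM in siGSE1 cells and 24.3-fold in control cells. These are ratios of RNA values divided by exonic lengths of 507 bases for NOP10 and 1964 for GAR1. Protein amounts in the complex were not measured.

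Both RNA polymerase I subunits were near 0 change. POLR1A, the largest subunit, had 15.7, 15.57 and 16.54 FPKM in siGSE1 cells against 16.24, 15.7 and 16.37 in control cells. The groups overlapped, and the log2 fold change was -0.04 (SE 0.05, edgeR adjusted p = 0.649), with a 2 SE interval of -0.14 to 0.06. With TPM scaling it was 0.02, where the median of all genes tested was 0.07. POLR1B, the next largest subunit, was at -0.03 (SE 0.07).

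Small subunit factors, the largest role, had 7 of 14 (50.0%) lower, 1 (7.1%) higher and 6 not past the threshold. Of all genes tested 9.02% fell and 10.9% rose. RRP12, which acts in maturation and export of pre-ribosomes, had 9.25, 8.81 and 8.94 FPKM in siGSE1 cells, against 12.26, 10.85 and 12.37 in control cells. The groups did not overlap, and its log2 fold change was -0.42 (SE 0.06, edgeR adjusted p = 1.94e-04). BYSL, a bystin family factor of the pre-40S particle, had 19.89, 22.97 and 21.28 FPKM in siGSE1 cells against 27.27, 26.47 and 28.14 in control cells. It fell by 0.38 on the log2 scale (SE 0.07, edgeR adjusted p = 0.00111), and its E-box is among the sequences above. RRP9, a protein of the U3 snoRNP that docks on the pre-ribosomal RNA, had 20.91, 21.58 and 22.11 FPKM in siGSE1 cells against 29.38, 25.75 and 25.8 in control cells. It fell by 0.35 on the log2 scale (SE 0.08, edgeR adjusted p = 0.00387).

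PNO1, a KH-domain factor of small subunit cutting, had 18.42, 17.53 and 16.29 FPKM in siGSE1 cells, against 21.45, 21.56 and 21.3 in control cells. The control values were nearly identical and all above the siGSE1 values (log2 fold change -0.33, SE 0.07, edgeR adjusted p = 0.00228). WDR75, part of the group of processome proteins that also act in transcription of ribosomal RNA genes, had 8.58, 9.73 and 7.73 FPKM in siGSE1 cells against 10.88, 10.69 and 10.53 in control cells. Its siGSE1 values were the more scattered (log2 fold change -0.33, SE 0.08, edgeR adjusted p = 0.00696), and without siGSE1 replicate 3 the adjusted p was 0.0535. TBL3, another processome WD-repeat protein, fell by 0.29 and WDR43, of the same group as WDR75, by 0.17 on the log2 scale (edgeR adjusted p = 0.00238 and 0.0347).

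WDR43 was called in 8 of 17 alternatives. It lost its call without siGSE1 replicate 1, 2 or 3 or control replicate 1, with library totals only, with TPM scaling, with no low-count filter and with both limma fits. Of the members of the WDR75 group, UTP15 (-0.24, edgeR adjusted p = 0.0533), HEATR1 (-0.05) and UTP4 (-0.06) did not pass. UTP15 nevertheless had non-overlapping groups, at 3.69, 3.92 and 4.03 FPKM in siGSE1 cells against 4.9, 4.23 and 4.41 in control cells, and passed in 5 of 17 alternatives, among them without control replicate 2. UTP4 shares a long stretch with SNTB2 on the same strand, so its reads may be divided. UTP20 was at -0.09, NOP14 at 0.04 and the helicase DDX10 at 0.05 on the log2 scale.

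RIOK1 (ENSG00000124784, chromosome 6, 7389793 to 7418037, plus strand), an atypical kinase that acts on the pre-40S particle in the cytoplasm, was the exception among small subunit factors. It had 4.83, 5.14 and 5.07 FPKM in siGSE1 cells, against 3.17, 3.59 and 3.29 in control cells, with counts of 140 to 219 in the control libraries. All siGSE1 values were above all control values (log2 fold change 0.56, SE 0.11, edgeR adjusted p = 0.00188). It was the least abundant member, and counting error is the largest for it among the members that rose.

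Of 11 large subunit factors 4 (36.4%) fell, where 9.02% of all genes did, 0 rose and 7 did not pass. SENP3 (ENSG00000161956, chromosome 17, 7561919 to 7571969, plus strand), which removes SUMO from nucleolar proteins including nucleophosmin, had 5.65, 5.88 and 5.35 FPKM in siGSE1 cells. Control cells had 10.1, 10.34 and 10.77 FPKM. The groups were far apart, and the log2 fold change, the largest in size of any member, was -0.91 (SE 0.08, edgeR adjusted p = 8.32e-07). The read-through gene SENP3-EIF4A1 overlaps it on the same strand but had only 21 counts a library in siGSE1 cells and 30.3 in control cells on average. PELP1, TEX10, WDR18 and LAS1L, known partners of SENP3 in a large subunit maturation complex and named here after their values were seen, had log2 fold changes of -0.22, -0.07, 0.00 and -0.13, and PELP1 passed the threshold (edgeR adjusted p = 0.0179).

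NIP7, a small factor of pre-ribosomal RNA processing, had 6.59, 5.68 and 5.67 FPKM in siGSE1 cells against 7.83, 8.05 and 8.4 in control cells. It fell by 0.46 on the log2 scale (SE 0.08, edgeR adjusted p = 6.20e-04), the largest decrease after SENP3. COG8 overlaps it on the opposite strand, with 565.3 counts a library in siGSE1 cells and 611.3 in control cells, and the libraries are not stated to be stranded. NOP2, a cytosine methyltransferase of large subunit RNA, had 4.72, 4.1 and 4.98 FPKM in siGSE1 cells against 5.83, 5.36 and 5.84 in control cells (log2 fold change -0.33, SE 0.09, edgeR adjusted p = 0.0192). Its call was lost without siGSE1 replicate 2 (adjusted p = 0.113) or control replicate 1 (0.0653), with TPM scaling (0.0533) and with both limma fits (0.0634 and 0.0604). GNL3, the GTP-binding protein nucleostemin, fell by 0.23 (edgeR adjusted p = 0.0239), a call lost without any 1 of the siGSE1 libraries or control replicate 1, with TPM scaling and with both limma fits.

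The PeBoW complex, in which PES1, BOP1 and WDR12 process the precursor of large subunit RNA, did not pass at any member. PES1 had 26.37, 26.44 and 26.4 FPKM in siGSE1 cells against 28.05, 29.36 and 26.89 in control cells, BOP1 was at -0.06 on the log2 scale and WDR12 at -0.16. PES1 had non-overlapping groups (log2 fold change -0.12, edgeR adjusted p = 0.151), and WDR12 passed without control replicate 3 (adjusted p = 0.0406). RRS1, which brings the 5S particle into the large subunit precursor, was at -0.14, NOP16 at -0.14, the helicase DDX18 at -0.08 and RRP1B at 0.03. Over all 22 members that did not pass, log2 fold changes ran from -0.32 to 0.06 and SEs from 0.05 to 0.13. The 2 SE intervals of LYAR, UTP15, PES1, WDR12 and RRS1 lay below 0, and these 5 had an unadjusted p under 0.05 in edgeR. The intervals of the others included 0, with GAR1 reaching down to -0.44 and DDX10 up to 0.19.

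**Figure D4:**
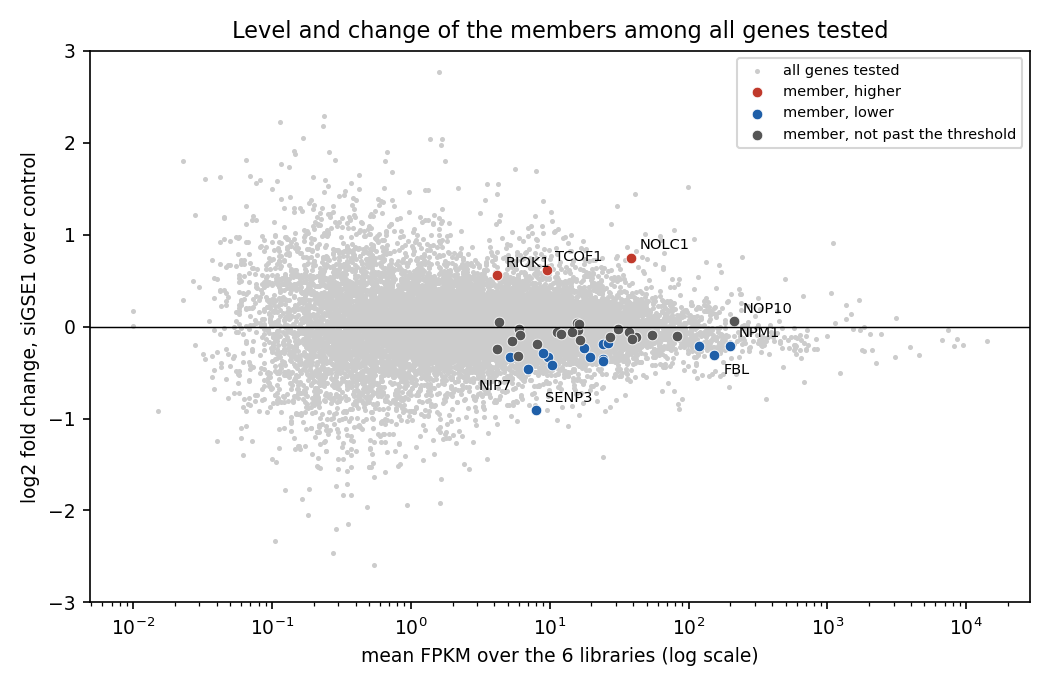
Log2 fold change, siGSE1 over control (y axis), against mean FPKM over the 6 libraries (x axis, log scale) for all genes tested (grey) and the 40 members (coloured by call). Most members lie at middle to high levels in a narrow band at or below 0, apart from NOLC1, TCOF1, RIOK1 and SENP3.

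The members were expressed above the median gene in every case, with a median of 16.0 FPKM in control cells where all tested genes had 3.77. Control means ran from 3.35 FPKM for RIOK1 to 212 for NPM1, and the lowest count of any member in any library was 140. At these depths the within-group SD of log2 CPM (counts scaled to the library total) had a median of 0.07 over the members and 0.13 over all genes tested. Together the 40 genes took 0.477% to 0.482% of the counts in siGSE1 libraries and 0.503% to 0.528% in control libraries. Their median deviation from the control mean was -0.14 log2 CPM in each siGSE1 library. It was 0.05, -0.03 and -0.03 in control replicates 1, 2 and 3, so control replicate 1 held the highest values.

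Other genes of ribosome production were also more often lower than higher. Of 121 tested genes in 5 further lists 26 fell and 6 rose, with a median log2 fold change of -0.11, and 21.5% fell where 9.02% of all genes did. The count of lower genes was 15, 17 and 16 without siGSE1 replicates 1, 2 and 3, and 14 with TPM scaling. Higher genes numbered 2 and 3 without siGSE1 replicates 2 and 3, and 9 with TPM scaling. In the small subunit list 10 of 35 (28.6%) fell and 1 (2.9%) rose, and with 1 library left out 4 to 13 fell. UTP3, a processome protein, had 16.16, 15.91 and 15.26 FPKM in siGSE1 cells against 24.19, 25.71 and 22.64 in control cells (log2 fold change -0.64, edgeR adjusted p = 1.35e-05), and ESF1, a nucleolar factor of early small subunit assembly, fell by 0.45.

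In the large subunit list 6 of 44 (13.6%) fell and 2 (4.5%) rose, where 9.02% and 10.9% of all genes did. With 1 library left out 3 to 12 fell, the most without control replicate 2. With TPM scaling 2 fell and 4 rose, beside 5.83% lower and 16.0% higher among all genes. The called genes of this list included the methyltransferase FTSJ3, which fell by 0.29, and SBDS, which acts in the last cytoplasmic step. SBDS had 40.97, 41.42 and 42.46 FPKM in siGSE1 cells against 34.97, 32.84 and 29.08 in control cells (log2 fold change 0.34, edgeR adjusted p = 0.00325). The list of RNA polymerase I machinery, in which TOP1 was counted, went both ways. Of its genes 3 of 14 (21.4%) were lower and 3 (21.4%) higher (1 to 3 and 1 to 3 with 1 library left out). The subunits POLR1C (-0.37) and POLR1E (-0.25) and the initiation factor RRN3 (-0.24) were lower. TAF1C (0.27), TWISTNB (0.23) and the DNA topoisomerase TOP1 (0.21), which is not specific to RNA polymerase I, were higher. Assembly factors of snoRNPs had 3 of 13 (23.1%) lower and 0 higher (1 lower without siGSE1 replicate 1). They were led by the ATPase RUVBL1 (-0.34) and SNU13 (-0.25), a core protein of box C/D particles. The RNA exosome, which trims ribosomal RNA, had 4 of 15 (26.7%) lower and 0 higher (2 lower without siGSE1 replicate 1). Among its lower genes were the nuclease DIS3 (-0.39) and EXOSC5 (-0.32).

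Cytosolic ribosomal proteins, the cargo of this pathway, had 31 of 79 (39.2%) lower and 1 (1.3%) higher, with a median log2 fold change of -0.15. Some had few counts, such as RPS28 with 58 to 100 a library and RPL36A with 110 to 187, neither past the threshold. Whether reads of these genes were divided among near-identical copies was not tested. The lower count was 18, 15 and 14 without siGSE1 replicates 1, 2 and 3, 20 without control replicate 1 and 16 with TPM scaling. Outside the members, 81 tested genes carried the deposited ontology term rRNA processing, of which 22 (27.2%) fell and 4 (4.9%) rose. Only the members were taken out, so genes of the lists above may be counted again here. The term nucleolus, which 32 members carry, was held by 1438 other tested genes, of which 13.1% fell and 11.5% rose, shares nearer to those of all genes.

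**Figure D5:**
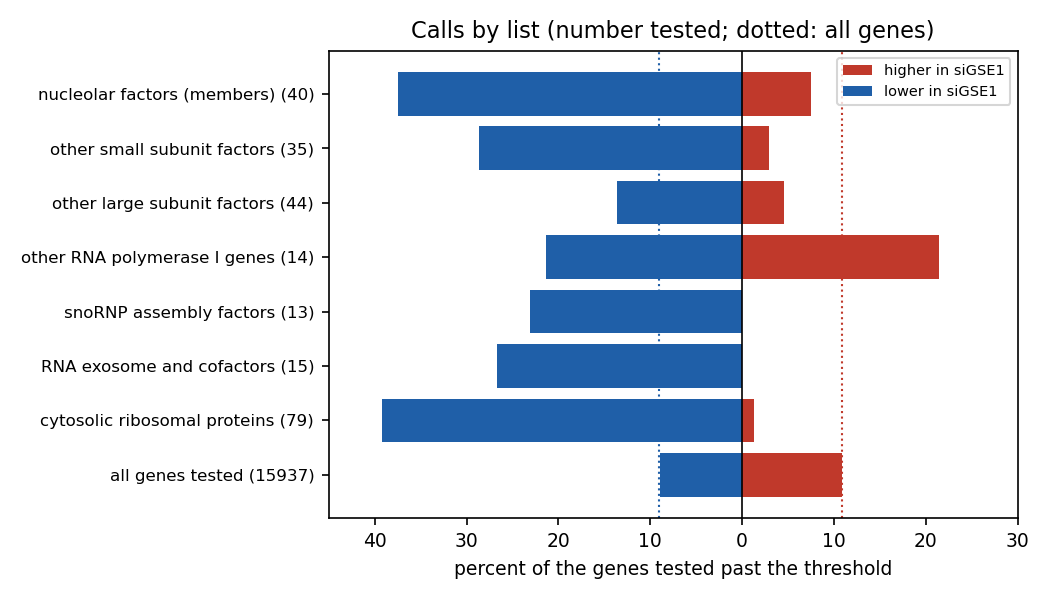
Share of tested genes past the threshold (x axis, percent), lower in siGSE1 cells to the left and higher to the right, for the members and related lists (y axis, number tested in brackets), with dotted lines at the shares of all genes. The members and the ribosomal proteins have the longest bars to the left, 37.5% and 39.2%. The RNA polymerase I list, with TOP1 counted, has bars of equal length on both sides.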

How the data were processed

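RNA of 6 A549 libraries (3 siGSE1, 3 control) was sequenced. The authors deposited raw read counts and FPKM per Ensembl gene, and each deposited FPKM equals count over exonic length and library total within 0.0051 in 100% of values. Per the submitters' processing notes, HISAT2, StringTie 1.3.3b, HTSeq, cutadapt and edgeR were used with hg38. Per the series text, mapping was with STAR and testing with DESeq2. The sources used here give neither annotation release nor strandedness.

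Counts were tested with edgeR 4.0.16 (quasi-likelihood, group only, TMM) in R 4.3.3 on 15937 genes kept by filterByExpr (minimum count 10, total 15), with Benjamini-Hochberg adjustment over all of them. SEs are the absolute log2 fold change over the square root of F. DESeq2 1.42.0, limma 3.58.1 on log2(FPKM + 1) or log2(FPKM + 0.1), other scalings, filters and priors, a replicate block, removal of GC content and length trends, and leaving out each library were alternatives.

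Members, lists and tests were chosen with earlier results of these data known. Per-library values are given for called members with a log2 fold change of 0.3 or more in size, the 2 called members per role with the smallest adjusted p, or the most abundant where none was called. In each other list, up to 2 called genes with the smallest adjusted p are named. Further genes were named after their values were seen. Genes listed under an older symbol were matched by Ensembl ID. Promoters are RefSeq's.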

Additional observations from a re-analysis of the deposited data

How the results depend on the processing

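The 3 members that rose did so in all 17 alternatives, and 9 of the 15 that fell were called in all of them. The exceptions were NOP58, NPM1, WDR43, WDR75, NOP2 and GNL3. The number of lower members ran from 10 to 17 over the alternatives, the lowest without siGSE1 replicate 3. The median log2 fold change of the members was -0.079 with TPM scaling, where that of all genes tested was 0.067. With limma on log2(FPKM + 1) these medians were -0.105 and 0.018. The member median ran from -0.17 to -0.10 when 1 library was left out. At the stricter limits 1 member rose with limma on log2(FPKM + 1), where TCOF1 had an adjusted p of 0.00103, and with 1 library left out 2 to 3 rose and 1 to 2 fell. Lower genes of the 5 further lists numbered 14 with TPM scaling, 17 with limma on log2(FPKM + 1) and 15 to 36 with 1 library left out. Higher genes of these lists numbered 9 with TPM scaling and 2 to 6 with 1 library left out. Of the members not past the threshold 8 changed sign in an alternative. With TPM scaling these were POLR1A, at 0.023, and DKC1, POLR1B, UTP4, HEATR1 and BOP1, the last of which rounded to 0.0. In other alternatives they were NOP14 and RRP1B. TPM scaling also moved the split of all calls to 2544 higher and 929 lower, where the main counts were 1730 and 1437, and limma gave 887 to 909 lower. TPM scaling changed only how libraries were scaled, and the median of all genes tested moved with it, from 0.004 to 0.067. Why limma gave fewer lower genes was not tested. Deviations of same-numbered libraries correlated at 0.02, -0.02 and 0.00, so no shared replicate effect was visible. Whether these libraries were paired by culture or batch cannot be told from such values. With the replicate block 3 members rose and 15 fell, with a median of -0.14, and the further lists had 28 lower genes. Members had at least 140 counts a library, so depth limits mainly RIOK1, GAR1 and LYAR.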
